A study of Mus musculus with 6 samples.

Results

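The genes described here are 9 genes of the urea cycle and of amino acid breakdown in mouse liver, Cps1, Otc, Ass1, Asl, Arg1, Slc25a15, Hpd, Tdo2 and Gpt. They were chosen by name, and every probe set (the set of short probes that reads a transcript on the array) annotated to exactly 1 of these symbols was taken. This gave 15 probe sets of 45037 on the array, and 9 genes of 18193 that have a probe set of their own. A further probe set, annotated to Ass1 together with another gene, Gm5424, was left out by this rule although it was brighter than the Ass1 probe set taken, and the brightest probe set of a gene means, from here on, the brightest among those taken. Liver RNA came from 6 mice aged 32 weeks on normal chow, 3 of them KRAP-/- and 3 wild-type, each KRAP-/- mouse with a wild-type littermate, and was hybridized to 1 array per mouse. KRAP-/- mice carry a neomycin resistance cassette in place of exons 11–16 of KRAP, the gene of a cytoskeleton-associated protein, in every cell of the body, on a C57BL6/J background, and the wild-type littermates carry no such allele. Within each pair the KRAP-/- mouse was compared with its own littermate.

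The urea cycle is the route by which the liver turns toxic ammonia, set free when amino acids are broken down, into urea. In mitochondria, Cps1 joins ammonia and bicarbonate into carbamoyl phosphate and Otc passes it to ornithine to make citrulline. In the cytosol, Ass1 joins citrulline to aspartate, Asl splits the product into arginine and fumarate, and Arg1 cleaves arginine into urea and ornithine, which Slc25a15 carries back into mitochondria. Hpd acts in the breakdown of tyrosine, Tdo2 opens the ring of tryptophan, and Gpt moves the amino group of alanine to 2-oxoglutarate. These genes are abundant in hepatocytes, mostly in those near the portal vein, and are known to respond to dietary protein, glucagon and glucocorticoids.

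None of the 9 genes passed the test between KRAP-/- and wild-type liver by limma (adjusted p from 0.38 to 0.99 at the brightest probe set of each gene), and none of the 15 probe sets did either, with 0 members higher and 0 lower. No member had an unadjusted p under 0.05, at its brightest or at any other probe set. Of all 13217 genes tested, 1.64% passed at an adjusted p under 0.05 (0.333% higher and 1.31% lower in KRAP-/- liver), and 15.7% had an unadjusted p under 0.05. Of all 28531 probe sets tested, 1.41% passed (0.431% higher and 0.978% lower), and 14.9% had an unadjusted p under 0.05. The log2 fold changes of the 9 genes lay between −0.16 (Otc) and 0.15 (Tdo2), with a median of 0.07, beside −0.08 over all genes tested. The median size of the change, without its sign, was 0.10 for the members and 0.18 over all genes tested. The standard errors (SE) of the 9 genes ran from 0.07 to 0.14, beside a median of 0.16 over all genes tested. The size was not compared with that of bright genes alone. A filter modelled on that of the study, under which all 3 littermate ratios of the median-scaled signals had to reach 1.5 upward or 1/1.5 downward, was met by 0 of the 15 probe sets and by 5.18% of all probe sets on the array (2.3% upward and 2.88% downward). It was run with no limit on dim probe sets and without the study's per-gene normalization. That normalization divides a gene by a single value and so leaves these ratios unchanged. The counts are not those of the study, and why they differ was not tested. Of the 9 genes, 3 (Asl, Arg1 and Tdo2) had the same direction in all 3 pairs, a share of genes that was 38.5% over all those tested.

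The 95% intervals of these differences were narrow. At the brightest probe set they ran from 0.774-fold at the lowest (Otc) to 1.37-fold at the highest (Ass1), and all 9 lay within 1.5-fold in either direction. Of all genes tested 49.8% had such an interval, and of the 598 genes with a mean signal of at least 100 array medians 92.6% had one. The intervals are not adjusted for the number of genes. The interval of Ass1 reached 1.58-fold without pair 2 and 1.56-fold in limma without an intensity trend.

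Signals are given as multiples of the median signal of the array. The array medians, in deposited signal units, were 20.2 to 23.4 in KRAP-/- and 19.1 to 22.6 in wild-type liver. The Pearson correlation of log2 signals between 2 arrays was 0.944 to 0.958, with no array standing apart in this measure. The 3′ to 5′ signal ratio of the actin controls, a check of RNA quality, was 2.65 in the wild-type mouse of pair 1. It was 2.01 to 2.32 on the other arrays, and that of Gapdh was 0.71 to 0.80 on all. Whether this bears on the members was not tested. The probe set of KRAP itself, now listed as Itprid2, read 23.9, 24.5 and 22.3 in wild-type and 21.6, 21.3 and 20.0 in KRAP-/- liver (adjusted p = 0.44 from limma), and whether it lies inside the deleted exons is not given in the sources used here, so it checks nothing about the labels. In liver tissue, fewer cells of a type and less RNA per cell cannot be told apart. The 5 hepatocyte markers tested, among them albumin (Alb), had a summed level of 3270 to 3424 in wild-type and 3204 to 3608 in KRAP-/- liver, and none passed.

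The 250 bases before the gene start, from RefSeq on GRCm38.p6, were searched on both strands for the box CCAAT, for the TATA box letters TATAAA, for the cAMP response element TGACGTCA, for TTGCNNCAA, which is like the site of C/EBP factors, and for CAAAGTCCA, which is like that of HNF4. Sequences were at hand for 5 of the 9 members, Otc, Ass1, Slc25a15 with 2 starts, Hpd and Tdo2, and not used for Cps1, Asl, Arg1 and Gpt. The stretches of Otc and Tdo2 are shown because these genes stood at the lower and the upper end of the changes, with motif matches in capitals. That of Otc is chrX:10252055-10252304 on the plus strand and that of Tdo2 chr3:81975729-81975978 on the minus strand, both written 5′ to 3′ in the direction of the gene.
Otc: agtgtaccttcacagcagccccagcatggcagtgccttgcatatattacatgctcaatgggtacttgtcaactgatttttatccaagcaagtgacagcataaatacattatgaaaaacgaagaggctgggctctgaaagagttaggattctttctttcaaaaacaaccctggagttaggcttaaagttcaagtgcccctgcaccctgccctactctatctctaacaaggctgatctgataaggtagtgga
Tdo2: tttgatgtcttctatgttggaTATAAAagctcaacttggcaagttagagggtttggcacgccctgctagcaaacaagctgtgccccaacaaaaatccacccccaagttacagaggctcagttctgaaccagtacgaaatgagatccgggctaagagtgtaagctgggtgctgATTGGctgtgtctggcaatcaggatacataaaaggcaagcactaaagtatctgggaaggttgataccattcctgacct
Tdo2 held TATAAA 229 bases before the start on its own strand and CCAAT 78 bases before it on the opposite strand, printed as its reverse complement. Of 32851 promoters of the table, 33.8% held CCAAT, 12.4% TATAAA, 1.55% TGACGTCA, 1.74% TTGCNNCAA and 0.384% CAAAGTCCA. None of the other 5 member sequences held any of these letters, and the matches in Tdo2 do not overlap each other.

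**Figure D1:**
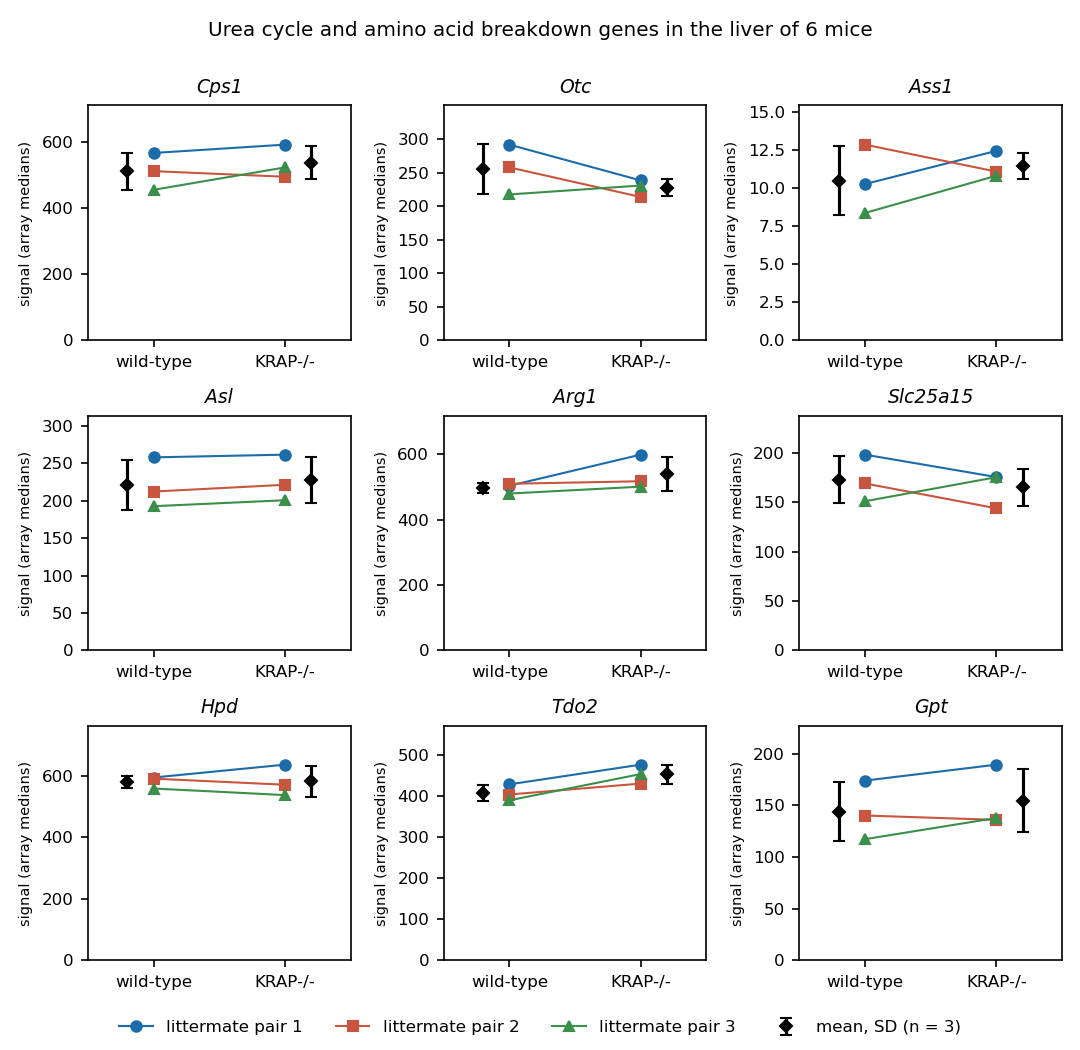
Signal, in multiples of the array median on linear axes from 0, of each of the 9 genes at its brightest probe set in wild-type and KRAP-/- liver. Each coloured point is a mouse, each line a littermate pair, and black diamonds with bars are means with their SD (n = 3). The genotypes overlap in 8 of the 9 genes, and in Tdo2 the highest wild-type mouse (428) and the lowest KRAP-/- mouse (429) lie next to each other.

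The mitochondrial steps are those of Cps1, Otc and the carrier Slc25a15. Cps1, the entry and rate-limiting step of the cycle, read 566, 511 and 455 in the wild-type mice of pairs 1, 2 and 3 and 591, 494 and 522 in their KRAP-/- littermates. The mouse of pair 1 was the highest in both genotypes, and the groups overlapped. The means were 510.4 ± 55.6 and 536 ± 49.8 (SD, n = 3 each). The log2 difference was 0.07 ± 0.08 (SE, limma adjusted p = 0.73), and the 95% interval ran from 0.927-fold to 1.19-fold.

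Otc was the lowest of the 9 in its change. Its brightest probe set read 292, 258 and 217 in wild-type and 238, 214 and 231 in KRAP-/- liver. The KRAP-/- mouse was lower in pairs 1 and 2 and higher in pair 3, so the direction was not shared by the pairs. This was a change of −0.16 ± 0.09 (log2, SE), limma adjusted p = 0.47, with an interval of 0.774-fold to 1.04-fold. Without pair 3 it was −0.28, with an unadjusted p under 0.05 and adjusted p = 0.17. The other 2 probe sets of Otc had the same pattern, lower in pairs 1 and 2 and higher in pair 3. The second read 165, 146 and 119 against 121, 125 and 148, and the dimmest 8.36, 8.53 and 5.75 against 6.41, 4.63 and 8.36. Their log2 fold changes were −0.12 and −0.24 (adjusted p = 0.72 and 0.67 from limma). The dimmest had the widest spread of the 15, with ratios of 0.767, 0.542 and 1.45 in pairs 1, 2 and 3.

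Slc25a15, the mitochondrial ornithine carrier whose loss causes the accumulation of ornithine and ammonia, read 198, 169 and 151 in wild-type and 176, 144 and 176 in KRAP-/- liver. As in Otc, the KRAP-/- mouse was lower in pairs 1 and 2 and higher in pair 3. In limma the change came to −0.06 ± 0.10 (log2, SE), adjusted p = 0.81. Its dimmer probe set read 18.9, 19.1 and 18.9 in wild-type mice, the closest agreement within a genotype of any member, and 15.9, 16.0 and 19.3 in KRAP-/- mice. There the KRAP-/- mice of pairs 1 and 2 lay below all wild-type mice and that of pair 3 above them, with a change of −0.16 (log2, limma adjusted p = 0.52).

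Ass1, Asl and Arg1 act in the cytosol. Ass1 read 10.3, 12.9 and 8.37 in wild-type and 12.4, 11.1 and 10.8 in KRAP-/- liver at the only probe set that lists no other gene. The KRAP-/- mice lay within the range of the wild-type mice. On the log2 scale limma gave 0.14 ± 0.14 (SE), adjusted p = 0.67, and without pair 2, the only pair in which the KRAP-/- mouse was lower, it was 0.32. The probe set left out because it lists Gm5424 beside Ass1 was far brighter, at 406, 406 and 266 in wild-type and 351, 288 and 322 in KRAP-/- liver. Its groups overlapped and its log2 difference had the opposite sign, −0.14 ± 0.13 (SE, limma adjusted p = 0.65), with an interval of 0.741-fold to 1.11-fold. The values for Ass1 thus rest on its dimmer probe set, and how far the brighter one reads Ass1 was not tested.

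Asl was the steadiest member across pairs. It read 258, 212 and 193 in wild-type and 262, 221 and 201 in KRAP-/- liver. The mice of a pair lay closer to each other than to other mice of their genotype, with ratios of 1.01, 1.04 and 1.04. Its limma estimate was 0.05 ± 0.07 (log2, SE), adjusted p = 0.82, with an interval of 0.919-fold to 1.16-fold.

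Arg1, the last enzyme of the cycle, read 504, 509.8 and 479.9 in wild-type and 599, 518 and 501 in KRAP-/- liver. The KRAP-/- mouse was higher in each pair, most so in pair 1, where the ratio was 1.19, and the groups overlapped. This was a change of 0.11 ± 0.08 (log2, SE), limma adjusted p = 0.56. Without pair 1 it was 0.04, and with quantile normalization the unadjusted p of Arg1 and of Tdo2 was under 0.05 but neither passed limma after adjustment (lowest adjusted p = 0.29).

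Among the enzymes of amino acid breakdown, Tdo2, which controls the entry of tryptophan into the kynurenine pathway, had the log2 fold change farthest above 0 and the lowest p of the 9 genes. Its brightest probe set read 428, 403 and 389 in wild-type and 475, 429 and 453 in KRAP-/- liver. All KRAP-/- mice lay above all wild-type mice, which was the case for 1 of the 9 members and, in the same direction, for 5.57% of all genes tested (20.7% in either direction). The means were 406 ± 19.6 and 453 ± 23.0 (SD, n = 3 each). The log2 difference was 0.15 ± 0.07 (SE, limma adjusted p = 0.38), with an interval of 0.990-fold to 1.25-fold. With the values as deposited the groups of Tdo2 overlapped, as did those of the other 8 genes at their brightest probe sets. With quantile normalization the groups did not overlap in 2 of the 9 genes. The share over all genes was not counted for either of these scalings.

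The dimmer probe sets of Tdo2 gave another picture of the pairs. One read 152, 121 and 94.4 in wild-type and 142, 129 and 174 in KRAP-/- liver, and the other 141, 113 and 87.6 against 122, 106 and 140.2. In both, pair 3 alone had a ratio above 1.5, at 1.85 and 1.60, while pairs 1 and 2 lay between 0.867 and 1.06. Their log2 fold changes were 0.29 and 0.13 (adjusted p = 0.44 and 0.75 from limma), and without pair 3 they were −0.0063 and −0.15.

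Hpd, the dioxygenase of tyrosine breakdown, had the same mean in both genotypes, 581 ± 19.7 in wild-type and 581 ± 50.3 in KRAP-/- liver (SD, n = 3 each). It read 594, 591 and 559 in wild-type and 636, 571 and 537 in KRAP-/- mice. The KRAP-/- mice spread to both sides of the wild-type range. In limma the change came to −0.0024 ± 0.08 (log2, SE), adjusted p = 0.99, and the interval of 0.886-fold to 1.13-fold reached about equally far to both sides of no change.

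Gpt, the alanine aminotransferase, read 174, 140.2 and 117 in wild-type and 189, 136 and 138 in KRAP-/- liver at its brightest probe set. The KRAP-/- mouse was higher in pairs 1 and 3 and lower in pair 2. On the log2 scale limma gave 0.10 ± 0.08 (SE), adjusted p = 0.61. The ID of this probe set ends in _s_at, which marks probe sets that may read more than 1 transcript. The dimmer probe set read 12.0, 7.21 and 5.0 in wild-type mice, the widest relative spread within a genotype among the members, and 8.15, 6.72 and 6.25 in KRAP-/- mice. Its change was −0.11 (log2, limma adjusted p = 0.80).

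**Figure D2:**
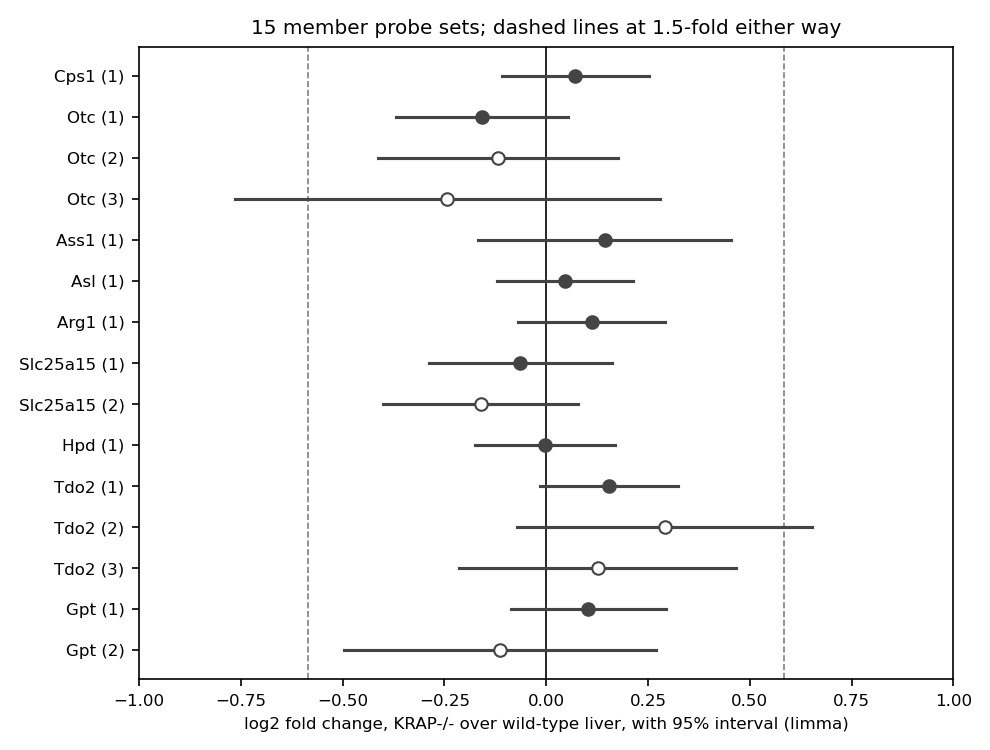
Change in KRAP-/- against wild-type liver, as log2 fold change on the x axis, of all 15 member probe sets, numbered within a gene from the brightest, with the 95% interval from limma (lines). Filled points are the brightest probe set of a gene, and dashed lines mark 1.5-fold in either direction. Every interval holds 0, and 13 of 15 lie within the dashed lines, the exceptions being the dimmest probe set of Otc and the second of Tdo2.

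The brightest members lay near the top of the range of the arrays. On each array 6 of the 15 probe sets, those of Cps1, Asl, Arg1 and Hpd and the brightest of Otc and Tdo2, were in the top 1% of signals. The highest deposited signal of a member, that of Hpd, was 14881, beside array maxima of 16608 to 21426. Whether the response of the arrays flattens at such signals was not tested.

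The members shared much of their order among the mice. The wild-type mouse of pair 3 was the lowest wild-type mouse at all 15 probe sets, while it was lowest for 36.3% of all genes tested and for 43.8% of those with a mean of at least 100. It remained the lowest at 15 probe sets with the values as deposited and at 14 with quantile normalization. The KRAP-/- mouse of pair 1 was the highest KRAP-/- mouse for all 9 genes at the brightest probe set, as it was for 78.9% of genes with a mean of at least 100, and with quantile normalization for 5 of the 9. The ratio of pair 3 was above 1 in 8 of the 9 genes, with a median of 1.15, while over all genes tested the median ratio of pair 3 was 0.942 and 38.7% of ratios were above 1. Among genes with a mean of at least 100 the median ratio of pair 3 was 0.976. In pair 2 the ratio was above 1 in 3 of the 9 genes, with a median of 0.967, and in pair 1 in 7, with a median of 1.07, close to the medians of 0.967 and 1.04 over genes with a mean of at least 100. The count of 3 for pair 2 was 1 with the values as deposited and 5 with quantile normalization. These counts describe single mice and were not tested, since the members were read on the same arrays.

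**Figure D3:**
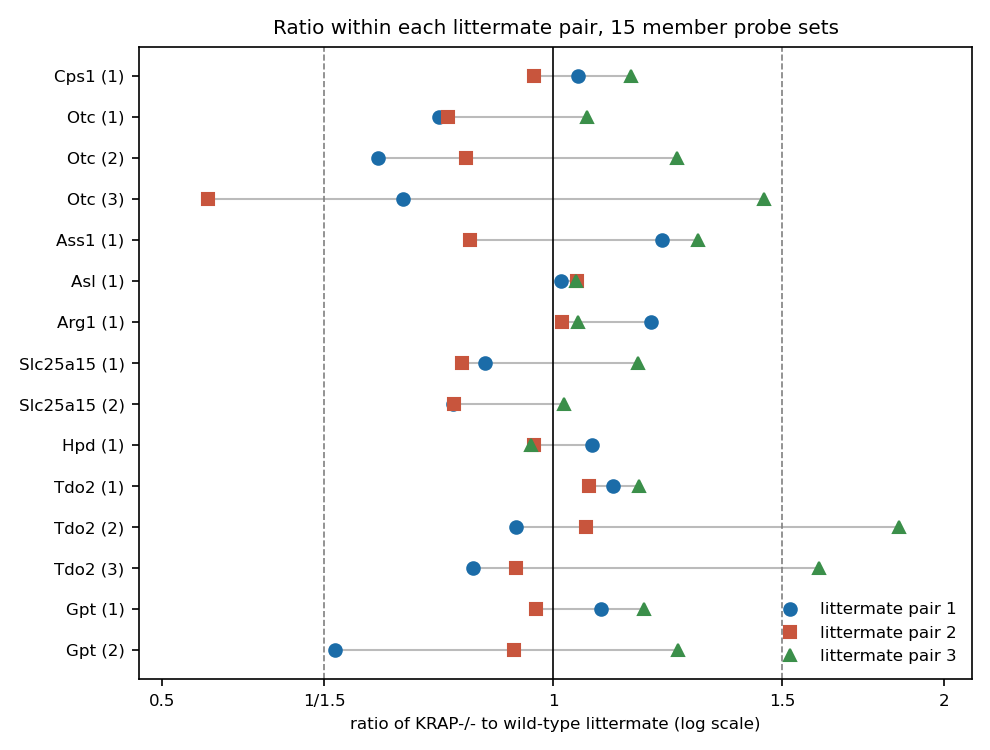
Ratio of the KRAP-/- mouse to its wild-type littermate in each of the 3 pairs, on a log axis, for all 15 member probe sets, numbered within a gene from the brightest. Grey lines join the lowest and highest ratio, and dashed lines mark 1.5 and 1/1.5. Of the 45 ratios 42 lie between the dashed lines, the triangles of pair 3 lie above 1 at 14 of 15 probe sets, and the ratios outside are those of pair 3 at 2 probe sets of Tdo2 and of pair 2 at the dimmest of Otc.

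Over the 3 mice of a genotype, the coefficient of variation at the brightest probe set was 3.16% to 21.4% in wild-type and 5.08% to 19.6% in KRAP-/- liver, with medians of 13.8% and 9.30%. Arg1, Hpd and Tdo2 had the lowest values among wild-type mice, and Ass1 and Gpt the highest. In 6 of the 9 genes the wild-type mice varied more than the KRAP-/- mice.

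Related genes were read from 10 lists. These hold genes of nitrogen disposal and amino acid metabolism, hormonal and transcriptional regulators, and genes that answer to glucagon or glucocorticoids. Of 91 such genes tested, Slc1a2 rose, Slc3a1 fell and 89 did not pass at the brightest probe set (2.2%, beside 1.64% of all genes tested). Over all 156 probe sets of these genes tested 6 passed (3.85%, beside 1.41% of all probe sets tested). Among them were dimmer probe sets of Hgd (0.87, log2) and Ppm1k (1.02), genes that did not pass at the brightest (adjusted p = 0.59 and 0.32 from limma). Of the 91 genes, 25 had an unadjusted p under 0.05, which is 27.5%, beside 15.7% of all genes tested. Of the 91 genes 59 were below 0, and their median log2 fold change was −0.09, beside −0.08 over all genes tested.

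Slc1a2, a glutamate transporter that hepatocytes next to the central vein use, read 19.1, 18.9 and 18.4 in wild-type and 31.2, 30.1 and 27.5 in KRAP-/- liver. All KRAP-/- mice lay well above all wild-type mice. Its limma estimate was 0.65 ± 0.09 (log2, SE), adjusted p = 0.012. A dimmer probe set rose as well, by 1.14 (log2, limma adjusted p = 0.026), while the second in brightness had 0.17 (adjusted p = 0.56). Glul, glutamine synthetase, which acts in the same cells on ammonia that the urea cycle leaves, read 187, 157 and 216 in wild-type and 229.9, 211 and 261 in KRAP-/- liver. It was higher in each pair, with a log2 fold change of 0.33, and did not pass (adjusted p = 0.084). Glul was named after its values were seen. Of the 8 markers of cells near the central vein, Slc1a2 rose and 7 did not pass, with a median of 0.05. They went both ways, with 4 above 0 and 4 below 0. Rhbg was at −0.44 and Axin2 at −0.31 (adjusted p = 0.39 and 0.37 from limma). An unadjusted p under 0.05 was found for 2 of the 8. Of 5 markers of cells near the portal vein none passed, with a median of −0.07, but 4 had an unadjusted p under 0.05 and they went both ways, Cdh1 at −0.44, Cyp2f2 at −0.33, Hsd17b13 at 0.29 and Pck1 at 0.24.

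Slc3a1, a subunit of a transporter of cystine and basic amino acids, read 22.6, 36.6 and 18.2 in wild-type and 14.6, 14.3 and 12.2 in KRAP-/- liver. All KRAP-/- mice lay below all wild-type mice. This was a change of −0.86 ± 0.15 (log2, SE), limma adjusted p = 0.030. With no limit on dim probe sets or no intensity trend neither Slc1a2 nor Slc3a1 passed (adjusted p from 0.38 to 0.43). Slc3a1 did not pass without the pair as a block (adjusted p = 0.085) or with quantile normalization (adjusted p = 0.059). Both Slc1a2 and Slc3a1 are in the list of 10 amino acid transporters, whose median was −0.17.

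The breakdown of tryptophan beyond Tdo2 had the lowest median of the 10 lists, −0.32 over 7 genes tested, of which 6 were below 0 (62.1% of all genes tested were) and none passed. Haao, which makes quinolinate, read 186, 172 and 139 in wild-type and 138, 123 and 127 in KRAP-/- liver, and Qprt, which uses it for NAD, read 56.1, 48.2 and 43.8 against 41.7, 38.6 and 37.4. In both genes all KRAP-/- mice lay below all wild-type mice, with log2 fold changes of −0.35 and −0.32 (adjusted p = 0.12 and 0.13 from limma). The groups did not overlap, in either direction, for 20.7% of all genes tested. Afmid, the formamidase that follows Tdo2, had −0.40 (adjusted p = 0.10) and Ido2, an enzyme of the same reaction as Tdo2, −0.49 (adjusted p = 0.24). At dimmer probe sets Afmid had −0.13 and −0.17 (adjusted p = 0.57 and 0.71 from limma) and Qprt −0.51 (adjusted p = 0.062). These 4 genes, named after their values were seen, were those of the list with an unadjusted p under 0.05. Without pair 3 Afmid and Haao passed (adjusted p = 0.017 and 0.030).

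In 8 further lists no gene passed at its brightest probe set. Among 10 genes of nitrogen entry and ammonia, glutamine, ornithine and arginine handling around the cycle, the largest change was that of Arg2, a mitochondrial arginase, with 0.35 (adjusted p = 0.83) on dim signals of 0.294 to 1.03. The 6 genes of phenylalanine and tyrosine breakdown were all below 0 at their brightest probe sets, as were 62.1% of all genes tested. They ran from −0.26 (Qdpr, adjusted p = 0.19 from limma) to −0.03. Hgd went both ways, with −0.13 (adjusted p = 0.59) at its brightest probe set and 0.87 (adjusted p = 0.042) at a dimmer one. Tat, the enzyme before Hpd in that route, named after its values were seen, had −0.25 (adjusted p = 0.38). The 9 genes of alanine, serine, threonine and glycine breakdown had a median of −0.12, with Shmt1, serine hydroxymethyltransferase, at −0.21 (adjusted p = 0.27) at its brightest probe set and −0.53 (adjusted p = 0.046) at a dimmer one. The largest changes were −0.26 (Csad, adjusted p = 0.77) among 9 genes of methionine and cysteine breakdown and −0.30 (Pcca, adjusted p = 0.29) among 16 of branched-chain amino acids, with medians of −0.01 and −0.02.

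Uroc1, an enzyme of histidine breakdown, had the largest change of its list. It read 31.6, 27.9 and 33.8 in wild-type and 38.4, 35.5 and 105.8 in KRAP-/- liver. The KRAP-/- mouse of pair 3 was far above the other 5 mice. The log2 fold change of 0.76 did not pass (adjusted p = 0.16 from limma). It passed without pair 1 (adjusted p = 0.013) or pair 2 (adjusted p = 0.0057), fits that keep that mouse. A dimmer probe set of Uroc1 read 6.62, 8.25 and 4.29 in wild-type and 8.06, 10.5 and 5.56 in KRAP-/- liver. There the KRAP-/- mouse of pair 3 was the lowest of its genotype, and the log2 fold change was 0.33 (adjusted p = 0.26 from limma). The median of the list of 10 genes for histidine, lysine and proline was −0.05.

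Of 7 hormonal and transcriptional regulators none passed. Ppargc1a, the coactivator PGC-1α that fasting and glucagon raise, read 4.44, 5.31 and 4.46 in wild-type and 7.30, 7.19 and 8.27 in KRAP-/- liver. All KRAP-/- mice lay above all wild-type mice, which was the case for 5.57% of all genes tested. The difference was 0.68 (log2, limma adjusted p = 0.060, and 0.040 without the pair as a block). At its dimmer probe sets Ppargc1a had 0.55, 0.50, 0.34 and 0.51 (adjusted p = 0.24, 0.16, 0.44 and 0.27 from limma). The groups overlapped at those with 0.50 and 0.34. Of 8 genes that answer to glucagon or glucocorticoids, none passed and 6 were above 0, while 62.1% of all genes tested were below 0. Their median was 0.24, beside −0.08 over all genes tested, and the largest change was in Per1, at 0.41 (adjusted p = 0.38 from limma). An unadjusted p under 0.05 was found for 3 of the 8, beside 15.7% of all genes tested. Igfbp1 had 0.40 (adjusted p = 0.26 from limma) and passed without pair 2 (adjusted p = 0.0077).

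**Figure D4:**
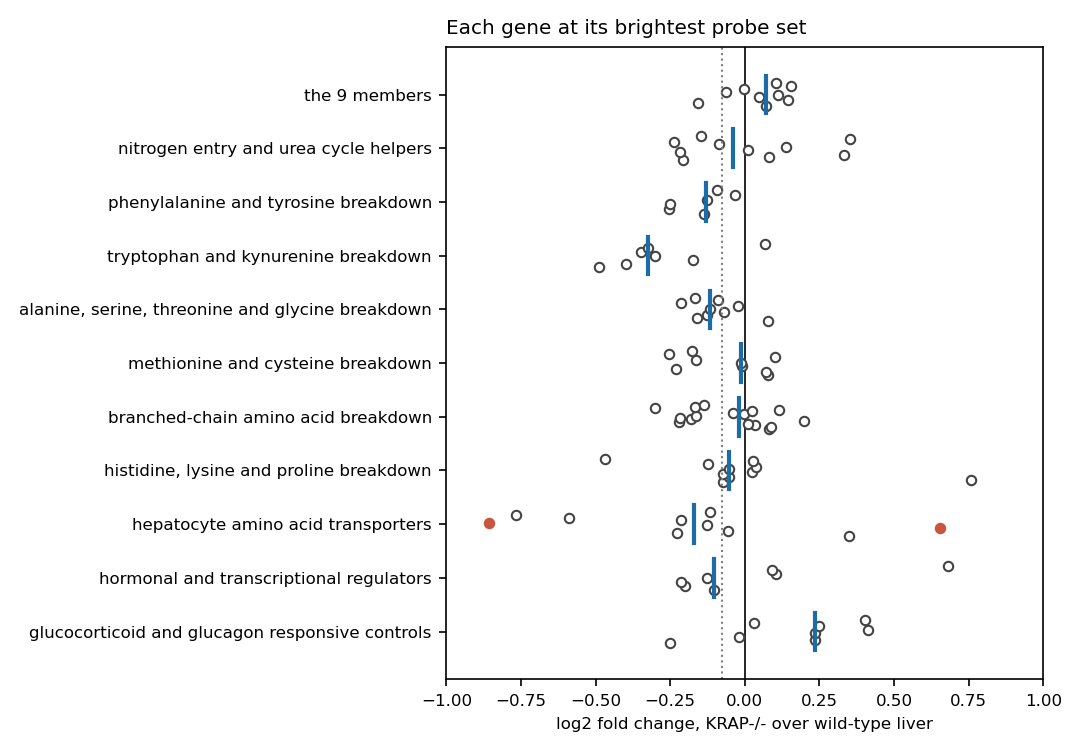
Change in KRAP-/- against wild-type liver, as log2 fold change, of the 9 members and of the genes of 10 related lists, each gene at its brightest probe set. Filled red points passed limma at an adjusted p under 0.05, blue bars mark the median of a list, and the dotted line marks the median of all genes tested. The 9 members lie between −0.16 and 0.15, no point of theirs is filled, and the filled points are Slc1a2 at 0.65 and Slc3a1 at −0.86 among the transporters.

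Markers of other liver cells were read as a check. All 8 markers of Kupffer cells and macrophages were below 0, beside 62.1% of all genes tested, with a median of −0.44, and Clec4f, a lectin of Kupffer cells, fell by 0.54 (log2, limma adjusted p = 0.025, and 0.071 with the values as deposited). Their summed level was 245 to 296 array medians in wild-type and 211 to 220.4 in KRAP-/- liver, and none of them was at 0. Their part in the values of the members and of the related lists was not tested. No gene passed among 6 markers of sinusoidal endothelial cells, 6 of stellate cells, 4 of cholangiocytes, 4 of neutrophils, 4 of lymphocytes, 2 of adipocytes, 2 of red blood cells and 1 of pancreatic acinar cells tested. The medians of these lists ran from −1.49 (adipocytes) to 0.56 (red blood cells).

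The genes most like Tdo2, the member with the lowest p, over the 6 arrays were Adgrl1, Rnf169 and Zbed3, with Pearson correlations of log2 signal of 0.987, 0.980 and 0.977 at the brightest probe sets. These are the highest of 13216 genes compared over 6 arrays, of which 116 had a correlation above 0.9, and they are given as a description. None of these 3 genes passed either (adjusted p from 0.46 to 0.51 from limma).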

How the data were processed

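Expression in liver was measured on Affymetrix Mouse Genome 430 2.0 arrays, 1 for each of 3 KRAP-/- mice and of their 3 wild-type littermates. The deposited table holds the authors' GCOS signal intensities on a linear scale (GCOS version not given in the sources used here), without the per-chip and per-gene normalization of the methods. Here each array was scaled to its own median over all probe sets, controls included. Then 64 control probe sets were dropped, and log2 was taken after a floor of 0.1. The 28531 probe sets whose mean reached 0.5 array medians went into limma 3.58.1 under R 4.3.3, blocked by littermate pair, with a trend of variance on intensity, and p-values were adjusted by Benjamini-Hochberg over all of them. Each gene stands at its brightest probe set. Of 45037 probe sets, 34945 were annotated to 1 gene, 932 to several and 9160 to none.

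The members, lists, motifs and the rule for named genes were chosen with earlier results of these data known. The rule names all members, KRAP, genes of the lists that passed or otherwise the largest change of a list, and the 3 genes most like the member with the lowest p. The study states that the mice were 3 pairs of littermates and compares mice of equal number. The sample labels give the number and not the pair, so mice were paired here by that number. Deviations from the mean of a genotype correlated between the 2 mice of a pair at 0.043, 0.0095 and −0.012. Precision is limited by the number of arrays. Promoters were read 250 bases upstream, without the 50 bases after the start that the table also holds. The alternatives were other scalings, floors, a pseudocount, limits on dim probe sets, no block, no trend, no _x_at or _s_at probe sets, gene means, other fold limits and leaving out each pair. Tables were handled in Python 3.11.15 (pandas 2.3.3, numpy 2.4.6) and drawn with matplotlib 3.10.9.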

Additional observations from a re-analysis of the deposited data

How the results depend on the processing

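No member passed under any of the alternatives, 0 genes higher and 0 lower in each, and the 1.5-fold rule took 0 member probe sets with limits of 1.2 or 2 or the values as deposited. Without the replicate block the lowest adjusted p of a member was 0.42, so the pairing changed no call of a member. Of 194 values of member probe sets under an alternative, 185 kept their direction. Leaving out each pair gave log2 fold changes of −0.053 to 0.0245 for Hpd, −0.20 to 0.020 for the brighter probe set of Slc25a15, −0.34 to 0.046 and −0.63 to 0.078 for the dimmer probe sets of Otc, −0.0063 to 0.48 and −0.15 to 0.29 for those of Tdo2 and −0.33 to 0.11 for that of Gpt, and Hpd had 0.048 with the values as deposited. The lowest adjusted p without a pair was 0.085, at a dimmer probe set, without pair 3.

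Over all probe sets, 123 were higher and 279 lower. These were 0 and 0 with no limit on dim probe sets and with no intensity trend, and 123 to 295 and 288 to 469 when each pair was left out (295 and 469 without pair 3, 186 higher without pair 2). Among the related lists 1 gene was higher and 1 lower. Without the replicate block 2 were higher (Slc1a2 and Ppargc1a) and 0 lower, with quantile normalization 0 were lower, and when each pair was left out 1 to 5 were higher and 1 to 6 lower, the 5 without pair 2 and the 6 without pair 3. With no limit on dim probe sets or no intensity trend, Slc1a2, Slc3a1 and Clec4f did not pass either (adjusted p of 0.38 to 0.43). The cause of these differences was not tested.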
